A study of Mus musculus with 10 samples.

Results

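The RNA content of the normal lung endothelial gate was described from the 5 libraries whose titles name normal lung, of 10 libraries in the series. The other 5 came from sorted cells of dissected lung metastases and were not used, so every value is a level, a rank or a spread among the normal lungs and none is a contrast. The mice were Wild type C57BL6/J mice aged 8 to 10 weeks. Their lungs were perfused and digested with Liberase for 30 min at 37 °C in buffer that held the transcription inhibitors alpha-amanitin (5 µg/mL) and actinomycin D (1 µg/mL). Red cells were lysed and CD31+/CD45- cells were sorted. CD31 is the adhesion molecule encoded by Pecam1, carried by endothelial cells and also by platelets, and CD45, encoded by Ptprc, is carried by leukocytes. Picopure RNA was amplified with the Ovation RNA-Seq V2 kit and sequenced as paired 100 bp reads on a HiSeq instrument. The labels do not say whether each normal library came from a separate mouse, so the spread between libraries may be partly technical.

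Most lung endothelial cells line the alveolar capillaries, where blood meets air across a very thin wall. These capillaries hold at least a pair of cell states, the general capillary cell, which can divide and repair the bed, and the aerocyte, a large flat cell specialised for gas exchange and marked by carbonic anhydrase 4 (Car4). Arteries, veins and lymphatic vessels carry their own endothelial cells. The lung endothelium is also known as a metabolic surface, which activates angiotensin, clears endothelin and prostaglandins and keeps blood from clotting.

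Gene counts per library ran from 41.0 to 79.7 M, and 24.3 to 34.4% of all counted fragments fell in genes. The 100 most abundant genes took 34.0% ± 2.67 of the gene counts (SD, n = 5), and libraries held 9014 to 9672 genes at 1 FPKM or more. FPKM is the number of fragments per kilobase of transcript, scaled to the depth of the library, and it is the scale used wherever genes are compared with each other. Counts scaled to library depth (CPM), scaled by the TMM method, are used for coefficients of variation (SD over mean) and for ratios between sets of libraries. Other values by library, with their SD, are deposited FPKM unless CPM is named. Summed over all genes, FPKM came to 303563 in library 2 and 338008 to 361478 in the others. An order of libraries can depend on the scale: Kdr was highest in library 3 by FPKM (667) and in library 1 by CPM (2929). Libraries 1 and 2 stood apart from libraries 3 to 5 and also differed from each other. Over genes with a mean of at least 1 CPM, log2 CPM had a Pearson correlation of 0.791 between libraries 1 and 2. It was 0.771 to 0.782 between the sets and 0.833 to 0.837 within libraries 3 to 5. Libraries 1 and 2 were also the deepest, with 75.5 and 79.7 M gene counts against 41.0 to 48.8 M. The ribosomal precursor Rn45s took 3.51 and 2.83% of gene counts in libraries 1 and 2 and 0.408 to 0.469% in the others, and genes rich in G and C bases were higher in libraries 1 and 2. Across 7238 genes with at least 10 CPM, which are not independent replicates, the ratio of libraries 1 and 2 to libraries 3 to 5 correlated with the GC content of the exons at a Spearman rho of 0.548. Here and below, GC content is that of the exons of the longest transcript. The median ratio rose from 0.608 in the fifth of genes with the least GC to 2.2 in the fifth with the most. The deposited FPKM carried a smaller form of the same pattern (rho of 0.379 over 4906 genes with a mean of at least 10 FPKM, median ratios from 0.708 to 1.44). Whether these shifts come from the animals or the library preparation was not tested.

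The 6 markers of the gate were all abundant. Positions are those of GENCODE M21 on GRCm38. Cdh5, the cadherin of endothelial junctions (chromosome 8, 104101625 to 104144511), was at 2645, 1836, 1615, 1706 and 1507 FPKM in libraries 1 to 5, with a mean of 1862 ± 454 (SD, n = 5) and rank 11 of 9821 genes with at least 10 counts in every library. Thbd, the thrombin receptor thrombomodulin (chromosome 2, 148404466 to 148408188), was at 1758, 1354, 1763, 1532 and 1367 FPKM, which is rank 16. Pecam1 itself (chromosome 11, 106654217 to 106750628) was at 1206, 774, 834, 807 and 748 FPKM, rank 32. Library 1 was the highest for Cdh5 and Pecam1, while the 4 other libraries lay close together. Cd36, a fatty acid receptor (chromosome 5, 17781690 to 17888801), was at 689, 553, 772, 549 and 657 FPKM. Car4 (chromosome 11, 84957786 to 84966044) was at 1048, 556, 515, 317 and 666 FPKM, and Kdr, the main VEGF receptor (chromosome 5, 75932827 to 75978458), at 613, 462, 667, 423 and 474 FPKM. Ptprc was at 2.01, 2.67, 1.27, 2.76 and 1.89 FPKM. Pecam1 was thus 290 to 657 times the level of Ptprc per length, and both sort genes went with the labelled gate in each library.

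Of the 6 markers, 3 have an upstream window in the RefSeq table used here (GRCm38.p6). Their 250 bases before the transcription start are shown because ETS factors such as Erg, described with the transcription factors, bind a GGAA core. Capitals mark GGAA or its reverse complement TTCC.
Kdr, chr5:75978456-75978705, minus strand: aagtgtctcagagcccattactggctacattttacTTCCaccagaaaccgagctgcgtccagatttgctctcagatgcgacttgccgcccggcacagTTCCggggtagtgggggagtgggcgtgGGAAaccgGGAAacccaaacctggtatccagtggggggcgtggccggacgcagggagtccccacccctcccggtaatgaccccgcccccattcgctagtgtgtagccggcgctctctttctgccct
Car4, chr11:84957504-84957753, plus strand: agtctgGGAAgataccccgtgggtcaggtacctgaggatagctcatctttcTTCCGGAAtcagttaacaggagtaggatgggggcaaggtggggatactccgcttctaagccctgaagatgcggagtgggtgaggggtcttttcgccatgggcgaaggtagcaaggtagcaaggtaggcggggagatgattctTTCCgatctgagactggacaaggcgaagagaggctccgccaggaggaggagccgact
Cd36, chr5:17835897-17836146, minus strand: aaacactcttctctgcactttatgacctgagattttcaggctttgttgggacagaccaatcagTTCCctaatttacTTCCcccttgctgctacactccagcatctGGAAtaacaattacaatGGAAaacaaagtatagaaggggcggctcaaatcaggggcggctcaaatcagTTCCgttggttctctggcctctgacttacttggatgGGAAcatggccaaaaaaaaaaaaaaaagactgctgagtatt
The windows held 4, 4 and 6 matches for Kdr, Car4 and Cd36. Over all 32851 windows of the same length, 93.4% held at least 1 match, with a median of 3 matches. The core is therefore common in any promoter, and a match is a description of the letters, not a binding site.

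The most abundant messenger RNA per length was B2m, the light chain of MHC class I, at 7814, 7577, 12749, 10742 and 12039 FPKM (mean 10184 ± 2385, SD, n = 5). Next came Pmp22, a tetraspan membrane protein, at 4360, 2324, 9750, 5646 and 8144 FPKM, and Igfbp7, a secreted binding protein of the endothelial matrix, at 5163, 2762, 7392, 4966 and 6244 FPKM. For each of these 3 genes library 2 was the lowest and library 3 the highest. Epas1, the transcription factor HIF-2alpha, followed at 2245, 2085, 2828, 2324 and 3066 FPKM. Then came the tetraspanin Tspan18 (mean 2481 ± 1210), the surface protein Ly6a (2039 ± 324), Cdh5, the protocadherin Pcdh1 (1733 ± 354), the monooxygenase Fmo1 (1724 ± 324) and the adhesion G protein coupled receptor Adgrf5 (1558 ± 366). With short RNA genes left out, the leading 25 also held the BMP receptor Bmpr2, the prostaglandin transporter Slco2a1 and the prostaglandin-degrading enzyme Hpgd at means of 1270, 1223 and 936 FPKM, and the adrenomedullin receptor partner Ramp2 at 1160. Leaving short RNA genes out in the same way, 20 genes had a mean of at least 1000 FPKM and 425 a mean of at least 100. Of 24460 genes in the FPKM table, 6854 reached 1 FPKM in all 5 libraries, 12031 in at least 1, and 1691 in exactly 1. Counts of detected class and list members below are to be set against 6854 of 24460.

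**Figure D1:**
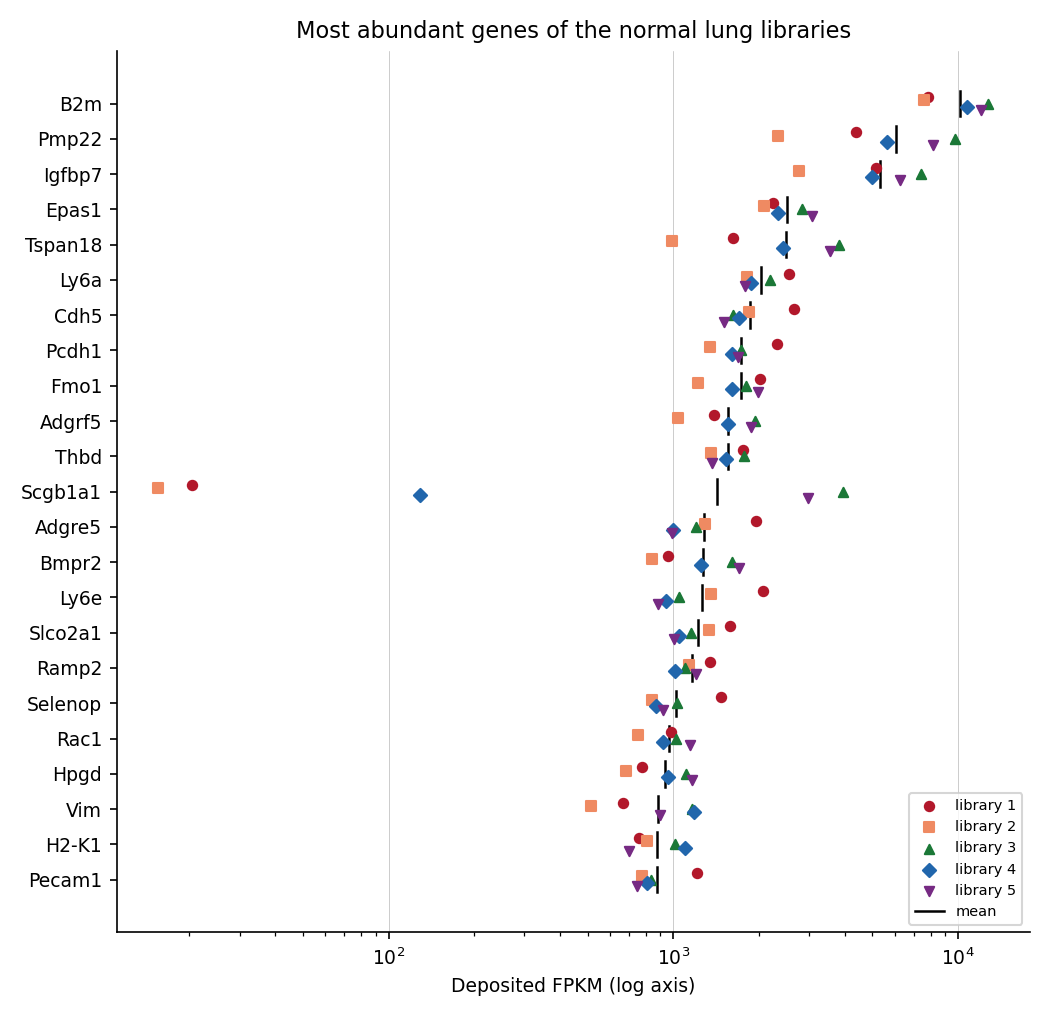
Deposited FPKM (log axis) of the most abundant genes, leaving out short RNA genes and genes with a failed FPKM; each point is 1 normal lung library and the black bar the mean of 5. Most genes stay within a few-fold over the libraries, while Scgb1a1 lies at 15.5 to 129 FPKM in 3 libraries and at 3956 and 2981 in libraries 3 and 5.

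Some of the deposited FPKM values are failed estimates. Malat1, a nuclear long noncoding RNA, was the gene with the most counts, 7.0% ± 2.69 of all gene counts (SD, n = 5), and yet is listed at 0 FPKM in all 5 libraries. Its share was 3.73 and 4.41% in libraries 1 and 2 and 8.72 to 9.18% in libraries 3 to 5, with no overlap. By CPM, 58.7% of genes at 1000 CPM or more had these sets of libraries apart, in either direction. Part of this share would arise with no difference between the sets. Calcrl, the receptor that pairs with Ramp2, is listed at 2101, 1807, 0, 2040 and 1969 FPKM. By counts it was at 12411, 10740, 16988, 16434 and 15001 CPM, so library 3, listed at 0, was the highest. A total of 193 genes had an FPKM of 0 with at least 100 counts in some library. By counts per kilobase of exon, which need no fit, Malat1 led with 10031 CPM per kilobase, then B2m with 9679, Pmp22 with 3577, Calcrl with 2886 and Epas1 with 1597. With short RNA genes counted, 6 of the leading 25 by FPKM were such genes, for example Mir6385, at 3459, 2522, 0, 37873 and 0 FPKM on a mean of 5.12 CPM. Their FPKM rests on few counts over a very short length, and they are not described further. By CPM, which favours long transcripts, the order began with Malat1 and Bmpr2, the latter at 13179, 11465, 28485, 23464 and 30449 CPM. The sodium channel gene Scn7a (7266 ± 2773 CPM) and Xist, the RNA of the silent X chromosome (8357 ± 3010 CPM), were also among the leading 10.

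Capillary markers dominated among the endothelial subtypes. All 22 of 22 pan-endothelial genes reached 1 FPKM in every library and 19 had a mean of at least 100 FPKM. Their median was 258, 192, 188, 204 and 207 FPKM in libraries 1 to 5, against a median of 9.05 ± 0.174 FPKM over all 9821 ranked genes. The median of the aerocyte list (11 genes) was 144, 139, 147, 129 and 122 FPKM, that of the general capillary list (13 genes) 73.0, 72.3, 71.5, 110.4 and 50.8 FPKM, and that of the arterial list (14 genes) 6.98, 32.1, 3.13, 9.72 and 9.91 FPKM. Venous (13 genes) and lymphatic (10 genes) lists had medians of 0.320 to 2.10 and 0.326 to 2.88 FPKM. In 5 of 5 libraries the order was pan-endothelial, aerocyte, general capillary, arterial, and then both of the others, while the venous median exceeded the lymphatic one in 1 of 5. The aerocyte median was 64.9% of the pan-endothelial median by FPKM and 99.0% by counts per kilobase of exon, above the general capillary list (36 and 38%) either way. Such medians compare chosen marker genes and are not shares of cells: a marker can be high because many cells carry it or because each cell makes much of it, and in bulk RNA fewer cells of a type and less RNA per cell cannot be told apart.

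**Figure D2:**
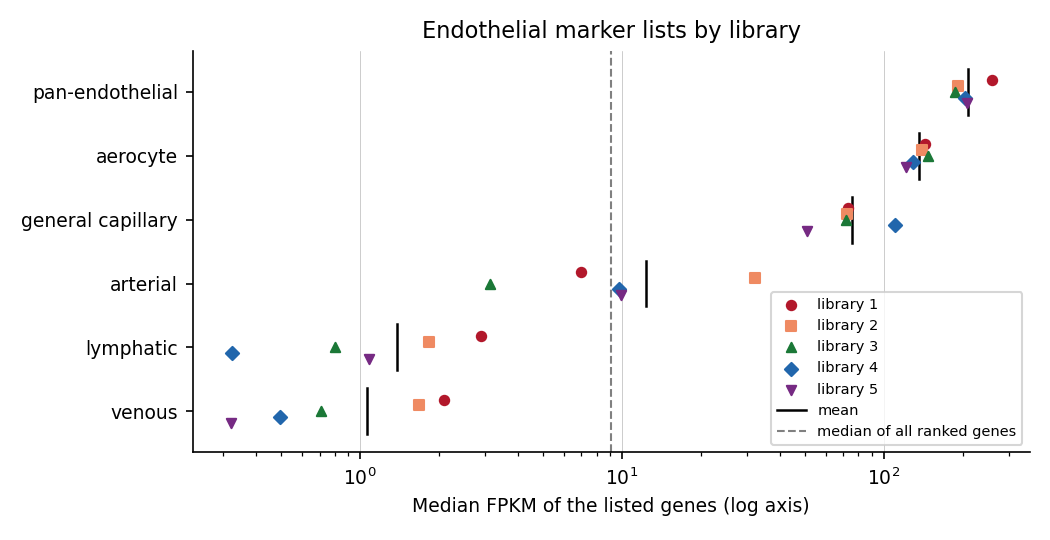
Median FPKM of 6 endothelial marker lists (log axis), 1 point per normal lung library, with the mean of 5 as a black bar and the median of all ranked genes as a dashed line. The aerocyte and general capillary lists lie above the dashed line in all 5 libraries, and the venous and lymphatic lists below it.

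Among aerocyte genes, Cyp4b1, a fatty acid hydroxylase, had the highest mean, at 911, 659, 937, 764 and 783 FPKM, although Car4 exceeded it in library 1. The endothelin B receptor Ednrb was at 464, 369, 562, 299 and 409 FPKM, and the tetraspan protein Emp2 at 825, 414, 449, 412 and 413 FPKM. Library 1 was the highest for Emp2, as it was for Car4. The peptide apelin (Apln), made by aerocytes, was at 119, 139, 147, 129 and 122 FPKM and varied little (131 ± 11.6). Its receptor Aplnr, a general capillary gene, was at 68.3, 68.8, 68.9, 62.4 and 26.1 FPKM, below its ligand in each library by 1.75 to 4.68 times. Fibin (264 ± 47.5 FPKM) and Tbx2 (99.3 ± 25.3) completed the upper part of the list, and the lowest member, Rprml, was at 6.54 ± 5.13 FPKM.

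The general capillary list was led by the lectin receptor Clec1a (307, 341, 342, 279 and 319 FPKM) and by Cd93, a lectin-like adhesion receptor (256, 424, 217, 430 and 200 FPKM). The incretin receptor Glp1r was at 260, 360, 107, 266 and 108 FPKM. Glp1r and Cd93 were lowest in the same pair of libraries, 3 and 5. Gpihbp1, which carries lipoprotein lipase to the capillary lumen, was at 120, 192, 152, 182 and 279 FPKM, the receptor kinase Kit at 73.0, 72.2, 73.2, 110.4 and 34.7 FPKM, and the diaphragm protein Plvap at 153, 155, 50.8, 102 and 35.1 FPKM. Only Rgcc had a mean under 1 FPKM (0.299 ± 0.229).

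Large vessel markers were uneven. Of the arterial list, the ephrin Efnb2 (225, 275, 135, 117 and 172 FPKM), Hey1 (39.3, 102, 118, 190 and 56.1 FPKM), the Notch ligand Dll4 (114, 79.0, 20.7, 99.8 and 55.1 FPKM) and Sox17 (32.7, 34.3, 66.4, 120 and 72.6 FPKM) were the highest, and all 4 are also known outside arteries. The gap junction gene Gja5, which is more restricted to arteries, was at 3.68, 2.95, 0.0520, 7.38 and 1.38 FPKM. Library 2 had the highest arterial median, with Sema3g at 48.3 FPKM there and 1.36 to 7.87 in the others. The venous list was led by Vwf (69.2, 57.5, 30.7, 90.5 and 6.61 FPKM) and Ephb4 (111, 63.9, 24.6, 33.5 and 9.84 FPKM). The venous regulator Nr2f2 had 0.452 ± 0.431 FPKM and Ackr1, a chemokine-binding receptor of venules, had no count in any library. No count in a library allows up to 0.0376 to 0.0732 CPM at the limit of 3 counts, which covers counting error only.

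In the lymphatic list a pair of genes was high and the rest low. Lyve1, a hyaluronan receptor, was at 378, 428, 249, 599 and 332 FPKM, and Flt4, the receptor for VEGF-C, at 122, 87.6, 146, 140 and 99.2 FPKM. The lymphatic regulator Prox1 was at 0.644, 2.07, 0.166, 0.0293 and 0.713 FPKM, and podoplanin (Pdpn) at 0.0132 to 0.0299 FPKM. Levels of Lyve1 and Flt4 did not follow Prox1: library 4 had the most Lyve1 and the least Prox1. The median of the 4 list members with at least 10 counts in every library came to 29.8% of the pan-endothelial median, against 0.660% for the whole list. Ccl21a is listed at 1.44 to 7.73 FPKM with no counts, and its near-identical copies make both values uncertain.

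Among 633 transcription factor symbols, matched by name patterns that are not complete, 228 reached 1 FPKM in all 5 libraries and 20 had a mean of at least 100 FPKM. The share that reached 1 FPKM was above that of all genes (6854 of 24460). Epas1 was the highest in each library, at 112 to 404 times the level of its paralog Hif1a. Epas1 varied little by counts (8999 ± 950 CPM, a coefficient of variation, SD over mean, of 10.6%). Next by mean FPKM were 2 Krüppel-like factors, Klf7 at 694, 585, 892, 753 and 1284 FPKM and Klf3 at 593, 361, 586, 775 and 896 FPKM. This order holds on the FPKM scale: by counts per kilobase of exon Klf7 was at 84.9 and Klf3 at 86.6 CPM per kilobase, below Jun (188), Tbx3 (183), Sox18 (181), Ahr (172) and Erg (140). The flow-responsive members Klf2 (320, 241, 216, 137 and 182 FPKM) and Klf4 (131, 236, 206, 228 and 235 FPKM) lay below them, and neither was higher in all libraries, since Klf2 exceeded Klf4 in 3 of 5. The Sox family was led by Sox18, a vascular factor, at 695, 455, 713, 625 and 471 FPKM, with Sox7 at 100 ± 30.1. Sox18 exceeded the arterial factor Sox17 by 5.22 to 21.2 times.

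The T-box factor Tbx3 was at 592, 465, 374, 267 and 304 FPKM and was 3.24 to 4.79 times its relative Tbx2. Both libraries 1 and 2 lay above the others for Tbx3, whose exons hold 54.2% GC. Of the ETS family, Erg, which maintains endothelial identity, was at 148, 110, 266, 301 and 249 FPKM, Ets2 at 136 ± 36.2 and Fli1 at 29.2 ± 6.48. Erg was lower in libraries 1 and 2 than in libraries 3 to 5, with no overlap. Egr1, an early response gene, was higher in libraries 1 and 2 (386 and 485 FPKM against 139, 191 and 137). By FPKM, 31.8% of 4998 genes had libraries 1 and 2 apart from the others in either direction. By CPM the share was 58.1% of the 449 genes at 300 to 1000 CPM, where Erg and Egr1 lie. Part of each share would arise with no difference between the sets. Exons of Egr1 hold 57.3% GC and those of Erg 50.8%. By CPM the ratio of libraries 1 and 2 to libraries 3 to 5 was 3.40 for Egr1 and 0.590 for Erg, whereas the fifth of genes that includes the GC content of Erg had a median ratio of 1.31, so Erg ran against the GC pattern. The summed ETS family, 713 ± 23.9 FPKM over 26 symbols, stayed between 681 and 748. Foxf1, the forkhead factor of lung mesenchyme and capillaries, was at 327, 211, 139, 119 and 217 FPKM. The noncoding RNA Fendrr, transcribed beside Foxf1, was at 418, 315, 783, 787 and 1004 FPKM, so the neighbours did not share their order of libraries. Gata2 was at 163, 216, 138, 164 and 175 FPKM, the stress factor Nfe2l2 at 268 ± 97.2 and the aryl hydrocarbon receptor Ahr at 169 ± 35.5.

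Receptors were led by a small group. Of 516 matched symbols, 136 reached 1 FPKM in every library and 33 had a mean of at least 100 FPKM. The share that reached 1 FPKM was near that of all genes (6854 of 24460). Of 268 symbols of G protein coupled receptors and their partners, 10 had a mean of at least 100 FPKM, led by Calcrl, Adgrf5, Adgre5 and Ramp2. Ramp2 was at 1346, 1135, 1101, 1017 and 1198 FPKM, and the leukocyte-binding adhesion receptor Adgre5 at 1953, 1288, 1196, 999 and 991. The place of Ramp2 depends on the scale. By counts per kilobase of exon it was at 149 CPM per kilobase, against 2886 for Calcrl and 807 for Adgre5. The sphingosine receptor S1pr1, which keeps the barrier tight, was at 598, 398, 572, 569 and 608 FPKM, lowest in library 2. Adgrl2, a latrophilin, was among the steadiest genes of the data (1154 ± 88.6 CPM, a coefficient of variation of 7.68%). The related Ramp3, which pairs with the same receptor, was at 0.0376 ± 0.0355 FPKM, and the hormone adrenomedullin itself (Adm) at 0.852 ± 1.03.

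**Figure D3:**
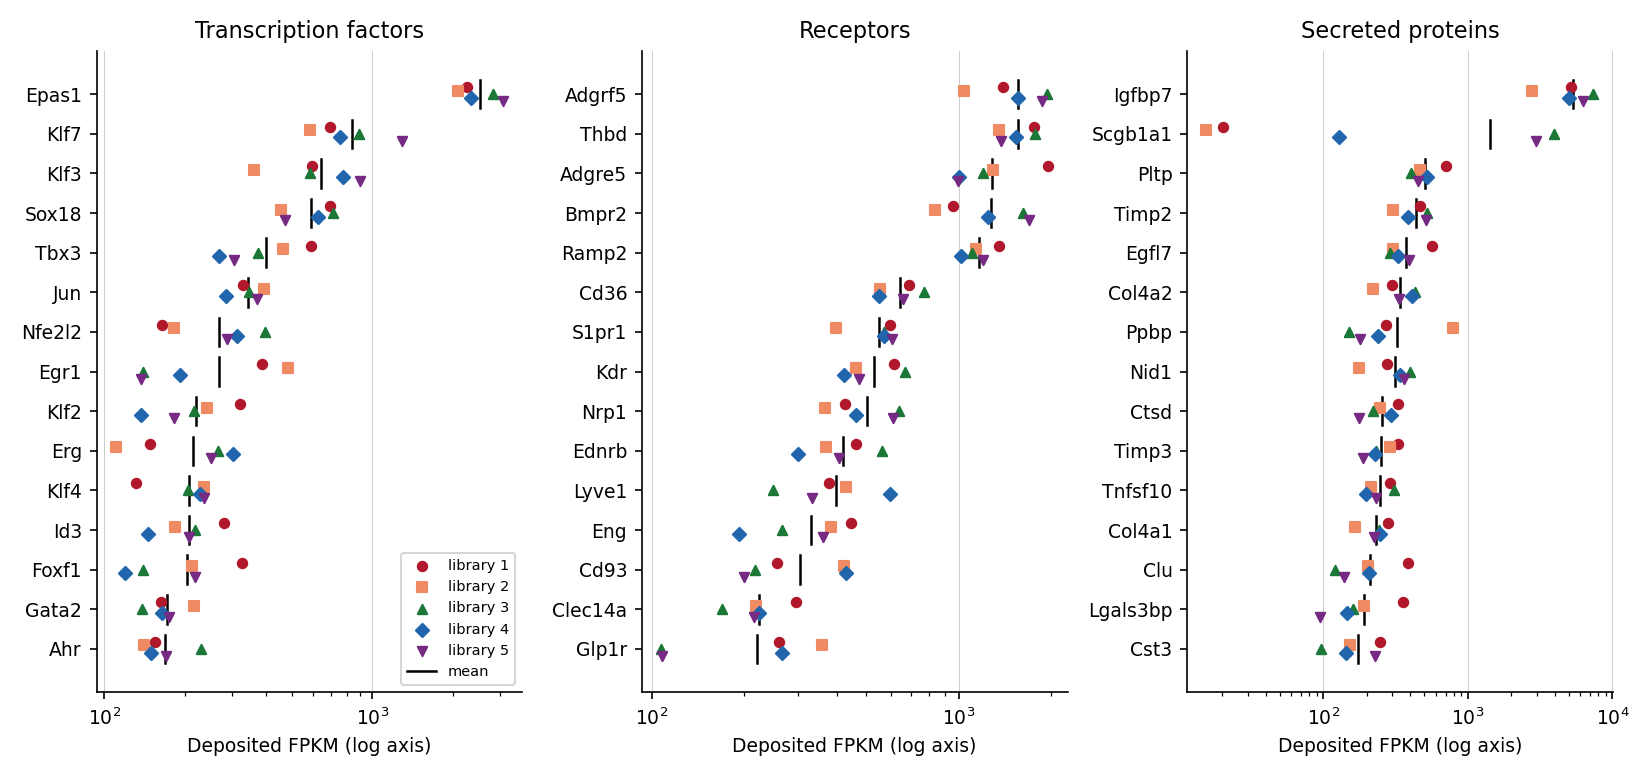
Deposited FPKM (log axis) of the 15 highest transcription factors, receptors and secreted proteins with no failed FPKM; points are the 5 normal lung libraries and bars their mean. Epas1, Adgrf5 and Igfbp7 head the 3 panels, and libraries 1 and 2 lie below the other 3 for Erg and Bmpr2 and above them for Egr1.

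In the VEGF and angiopoietin pathway, 11 of 14 measured genes reached 1 FPKM in every library. Kdr was the highest of the VEGF receptors, at 2.38 to 5.16 times Flt1 (151 ± 26.1 FPKM) and 3.03 to 5.28 times Flt4, and its co-receptor Nrp1 was at 425, 368, 639, 462 and 612 FPKM. The other co-receptor, Nrp2, was at 4.01 ± 2.83. Endothelial cells are better known as targets of VEGF than as its source. Vegfa was at 103, 105, 82.0, 154 and 142 FPKM. Vegfb (1.39, 79.3, 1.15, 1.07 and 6.71 FPKM) and Vegfc (0.244, 23.6, 1.2, 17.2 and 12 FPKM) differed between libraries by more than 10 times. The angiopoietin receptor Tek was at 132 ± 21.1 and its partner Tie1 at 97.3 ± 29.9 FPKM, with Tek higher in 3 of 5 libraries. Their order depends on the scale. By counts per kilobase of exon Tek was higher than Tie1 in every library (91.9 to 153 against 26.8 to 79.5 CPM per kilobase). Their ligands Angpt1 (2.09 ± 1.48) and Angpt2 (7.63 ± 4.83) were low.

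Receptors of the BMP and TGF-beta pathway were topped by Bmpr2 at 956, 839, 1612, 1247 and 1696 FPKM, with libraries 1 and 2 the lowest. Acvrl1, the type I receptor that pairs with it in endothelium, was at 354, 182, 133, 147 and 92.0 FPKM, with libraries 1 and 2 the highest. Bmpr2 exons hold 41.0% GC and Acvrl1 exons 56.6%, so these opposite orders run the way of the GC pattern of the libraries, whose part was not tested. The ratio of Bmpr2 to Acvrl1 accordingly ran from 2.70 to 18.4, and Bmpr2 was higher in 5 of 5. Eng, the co-receptor endoglin, was at 330 ± 100.1 FPKM. The targets Id1 and Id3 were at 157 ± 74.4 and 206 ± 48.9 FPKM, whereas Id2 was at 9.92 ± 4.67. Among the ligands of the list Bmp6 was the highest, at 107, 213, 107, 157 and 90.5 FPKM, against 10.3 ± 8.89 for Bmp4 and 1.88 ± 1.99 for Bmp2. In total 21 of 27 pathway genes reached 1 FPKM in all libraries and 6 had a mean of at least 100. Notch pathway genes were lower, with 10 of 13 detected in all libraries and 1, Hey1, at a mean of 100 or more. Notch4 (57.7 ± 19.3 FPKM) and Notch1 (50.3 ± 21.9) were the leading receptors and overlapped, with Notch4 higher in 4 of 5.

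Secreted proteins were headed by matrix and carrier genes. Of 782 matched symbols, 115 reached 1 FPKM in all libraries and 21 had a mean of at least 100 FPKM. The share that reached 1 FPKM was below that of all genes (6854 of 24460). Matrix genes made 53% ± 5.66 of the summed FPKM of the class, mostly through Igfbp7. Basement membrane genes were prominent: Col4a2 was at 298, 219, 433, 413 and 331 FPKM, Col4a1 at 231 ± 41.5, in each library below its partner chain by 1.07 to 1.79 times, and the linker nidogen (Nid1) at 278, 178, 400, 341 and 359. Egfl7, an endothelial matrix factor and host of a known endothelial microRNA, was at 561, 305, 288, 328 and 392 FPKM. The protease inhibitors Timp2 (438 ± 92.1 FPKM) and Timp3 (252 ± 54.3) were also high. The phospholipid transfer protein Pltp was at 508 ± 117 FPKM, but its counts gave 41.2 CPM per kilobase and 201, 166, 19.5, 58.7 and 70.4 CPM (a coefficient of variation of 74.4%), so its level and its spread depend on the scale. Signals to other cells included the stem cell factor Kitl (170, 116, 199, 123 and 201 FPKM) and the death ligand Tnfsf10 (290, 214, 310, 197 and 230 FPKM). Kitl and its receptor Kit were both detected in all 5 libraries. Scgb1a1 and Ppbp, ranked with the leading secreted genes, are known products of airway club cells and platelets and are given with the markers of other cells.

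Junction and adhesion genes, taken as 1 list, were abundant beyond Cdh5. Of 26 in the list, 20 reached 1 FPKM in all libraries and 13 had a mean of at least 100. The podocalyxin gene Podxl was at 615, 430, 584, 611 and 564 FPKM, the scaffold Tjp1 at 501, 351, 534, 527 and 491, and the catenin Ctnnd1, which holds Cdh5 at the membrane, at 427, 384, 535, 397 and 520. Library 2 was lowest for all 3. Cldn5, the tight junction claudin of endothelium, behaved otherwise, at 815, 348, 173, 142 and 130 FPKM, with libraries 1 and 2 above the rest and exons of 60.5% GC. Cdh5 exceeded Cldn5 by 3.24 to 12 times. Icam2 was also highest in library 1 (710, 206, 198, 155 and 200 FPKM). Of the inducible leukocyte adhesion genes, Icam1 was at 121 ± 35.5 FPKM, Vcam1 at 3.44 ± 3.98, Selp at 1.77 ± 2.35 and Sele at 0.298 ± 0.104. Cgn, a tight junction gene of epithelia, had no counts. Caveolae, the membrane pits that are dense in capillaries, were represented by Cav1 at 835, 619, 760, 695 and 683 FPKM (a coefficient of variation of 11.4% by counts), by Ehd4 at 667 ± 60.2 and by Sdpr (Cavin2) at 350 ± 55.9. The muscle form Cav3 had no counts.

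Vasoactive genes covered a wide range: of 16 in the list, 5 had a mean of at least 100 FPKM and 6 a mean below 1. Ace, which makes angiotensin II, was at 1052, 968, 570, 685 and 639 FPKM, and Ece1, which activates endothelin, at 812, 513, 304, 332 and 376. Both were higher in libraries 1 and 2 than in the others. Ace exons hold 55.6% GC and Ece1 exons 54.8%, so both run the way of the GC pattern of the libraries, whose part was not tested. Agtr1a, an angiotensin receptor gene, was listed at 0 in 4 of 5 libraries. Edn1 (endothelin) was at 28.0, 48.4, 12.9, 26.2 and 23.3 FPKM, and the receptor Ednrb exceeded it by 7.63 to 43.6 times. Nos3, the endothelial nitric oxide synthase, was at 0.234, 2.53, 5.23, 1.02 and 1.53 FPKM, rank 8509 of 9821. The prostacyclin synthase Ptgis was listed at 0 in 4 of 5 libraries and Ptgs1 was at 19.6 ± 14.0 FPKM. By counts too, Nos3 was at 8.29 ± 5.11 CPM and 1.97 CPM per kilobase of exon.

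Genes that control clotting were dominated by Thbd. The next members, Plaur (70.0 ± 45.9 FPKM), Tfpi (62.9 ± 40.8) and Vwf, had means under 100 FPKM. Procr, the protein C receptor that works beside thrombomodulin, was at 1.52, 1.43, 0.909, 0.794 and 0.882 FPKM, which is 948 to 1940 times below Thbd. Tissue factor (F3), the trigger of clotting, was listed at 0 in 3 libraries and at 0.0259 and 0.388 FPKM in the others. Of the flow-responsive genes, 5 of 8 reached 1 FPKM in all libraries, with Thbd, Klf2 and Klf4 far above Edn1, Piezo1 (17.5 ± 7.97) and Nos3. In lipid handling, Cd36 and Gpihbp1 were the highest, followed by the lipoprotein receptor Scarb1 (52.4 ± 10.3 FPKM) and the lipase Lpl (31.0 ± 9.26). In total 5 of 14 genes reached 1 FPKM in every library, and the list median was 0.801 ± 0.485 FPKM. Fabp4, a fatty acid carrier known from capillaries elsewhere, was at 5.04, 1.62, 12.4, 3.42 and 23.7 FPKM. Antigen presentation genes were high for class I, with H2-K1 at 756, 808, 1014, 1097 and 701 FPKM and H2-D1 at 580 ± 143. These class I genes have near-identical relatives, so their split is uncertain. B2m exceeded H2-K1 by 9.38 to 17.2 times.

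Markers of other cell types were low as lists and uneven in single libraries. Of 12 such lists, platelet genes had the highest median, 10.6 ± 12.5 FPKM or 5.07% of the pan-endothelial median, and the others were at or below 1.48%, the value of the airway list. Without library 2 the platelet list was at 2.43%, and without library 5 the airway list was at 0.0817%. Over only those members with at least 10 counts in every library, the order changed, with airway at 32.9%, alveolar type 1 at 18.6% and platelet at 6.81%. These medians rest on 3 of 8 airway genes, 2 of 7 alveolar type 1 genes (Hopx and Akap5) and 5 of 6 platelet genes. Platelets also carry CD31. Ppbp, a platelet chemokine, was at 273, 783, 152, 240 and 179 FPKM, Pf4 at 3.67, 39.6, 47.6, 27.8 and 8.31, and the glycoprotein Gp1ba at 17.2, 48.0, 4.76, 18.0 and 5.13. Library 2 had the highest sum of the 6 platelet genes, 925 FPKM against 199 to 297, and all 6 were measured above 0 in every library. The high-CV genes F5 (12.4, 42.1, 4.27, 9.05 and 6.19 FPKM) and Cd74 (156, 1204, 35.6, 348 and 216 FPKM), the first a clotting factor and the second the invariant chain of MHC class II, were also highest in library 2. The part of platelets in these values was not tested.

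Of the airway genes, the club cell genes Scgb1a1 and Cyp2f2 were high in libraries 3 and 5. Scgb1a1 was at 20.4, 15.5, 3956, 129 and 2981 FPKM and Cyp2f2 at 0.337, 0.230, 107, 0.827 and 40.1. The list sum was 142 to 224 FPKM in libraries 1, 2 and 4 and 4184 and 3200 in libraries 3 and 5, most of it from Scgb1a1 in that pair. The list median was high in library 5 alone, at 14.8 FPKM against 0.267 in library 3 and 0.414 in library 4. The ciliated cell regulator Foxj1 was at 0 to 0.0404 FPKM and Dynlrb2 had no counts, while Tppp3 was at 203, 126, 120, 40.5 and 149 FPKM without following Scgb1a1. Alveolar type 2 genes summed to 18.2 to 69.0 FPKM, with Sftpc at 0.336, 20.1, 0.528, 0.250 and 24.0. In the alveolar type 1 list, Hopx was at 88.9, 76.5, 74.2, 78.5 and 65.8 FPKM, with a coefficient of variation of 7.36% by counts, while Aqp5 and Clic3 had no counts and Ager was at 0.158 ± 0.172. Hopx is therefore steady here where the defining genes of type 1 cells are near 0.

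Stromal lists were near 0: fibroblast genes summed to 1.78 to 11.1 FPKM over 10 genes, with Tcf21 at no counts, and pericyte and smooth muscle genes to 0.790 to 12.3 over 12. Mesothelial genes summed to at most 1.09 FPKM. Of the cardiac muscle genes 5 of 6 had no counts, and Nppa was at 0.163 FPKM in library 2 and 0 in the others. Leukocyte genes, beside the low Ptprc, included Lyz2 at 14.3, 129, 18.6, 12.6 and 63.6 FPKM and Chil3, an alveolar macrophage gene, at 1.94, 1.09, 32.2, 4.65 and 135. The macrophage and monocyte sum over 12 genes was 36.3 to 217 FPKM. Lymphocyte genes summed to 0.262 to 19.4 FPKM and neutrophil genes to 0.113 to 2.23, with Retnlg, Ngp and Camp at no counts. Haemoglobin genes have near-identical copies and had no counts, and Hbb-bs is listed at 15.9 FPKM in library 2 and at 0.0224 to 0.143 in the others. No single library was highest for every contaminant list.

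**Figure D4:**
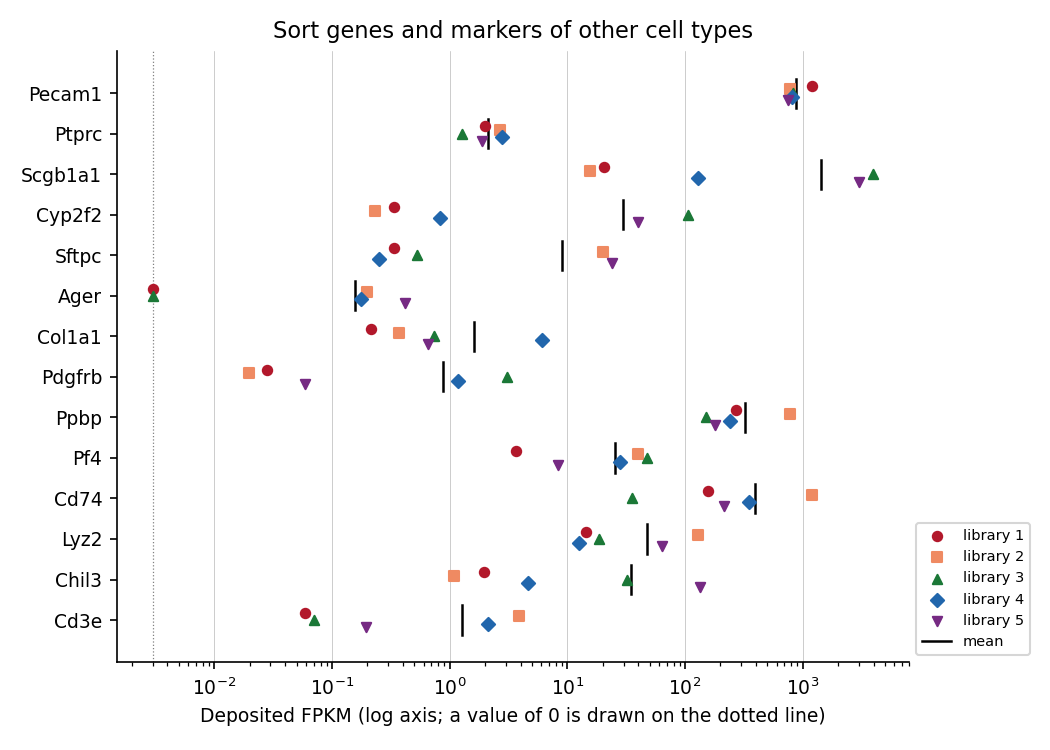
Deposited FPKM (log axis) of the sort genes Pecam1 and Ptprc and of markers of other cell types; points are the 5 normal lung libraries, bars their mean, and a value of 0 is drawn on the dotted line. Scgb1a1 and Cyp2f2 are highest in libraries 3 and 5, Ppbp, Cd74 and Lyz2 in library 2, and Chil3 in library 5.

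Genes of cell division were low: 1 of 10 proliferation genes reached 1 FPKM in all libraries, the list median was 0.538 to 0.802 FPKM, and Mki67 was at 0.741, 0.775, 5.23, 5.88 and 2.02. Top2a, needed to separate chromosomes, was at 9.07 FPKM in library 4 and 1.16 to 2.12 in the others. Early response genes are known to rise within minutes of tissue handling, and the digestion buffer held inhibitors of transcription. Of 21 such genes, 18 reached 1 FPKM in every library, with a median of 29.5, 28.1, 9.86, 29.9 and 12.2 FPKM. Dusp1 was at 645, 549, 326, 551 and 593 FPKM, Jun at 329, 394, 345, 284 and 370, Zfp36 at 298 ± 120, and Fos at 18.8, 22.3, 13.9, 62.1 and 31.1. Libraries 3 and 5 had the lowest list medians, and the other 3 lay close together.

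The spread between libraries set how far single levels can be read. The common biological coefficient of variation, the replicate error beyond counting as edgeR estimates it, was 0.788. Over 7378 genes with a mean of at least 10 CPM the median coefficient of variation was 53.9%. It fell from 75.7% for the 2834 genes at 10 to 30 CPM to 22.6% for the 92 genes at 1000 CPM or more, whereas counting error alone in the smallest library would give 3.73 and 0.388%. Highest and lowest library differed by at least 10 times for 1701 genes (23.1%), of which 1314 lay at 10 to 30 CPM. For 37.1% of genes, both of libraries 1 and 2 lay above, or both below, all of libraries 3 to 5. A pair out of 5 libraries lies at the same end for some genes even when all vary alike, and that share was not computed. The sets were also chosen after the data were seen, so the 37.1% cannot be read as a difference between the sets alone. Fitted to libraries 1 and 2 only, the common biological coefficient of variation was 0.789, and the fit to the 3 remaining libraries gave 0.718. Each fit kept its own genes after the filter on low counts: 11088, 10104 and, over all 5 libraries, 9653. The values therefore cannot be set directly against each other, and what the split of libraries adds to the spread was not tested.

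The steadiest genes with at least 100 CPM were Rlim, a ubiquitin ligase (220, 221, 217, 228 and 231 CPM, a coefficient of variation of 2.68%), the cytokine receptor Lifr (3.62%) and the zinc finger gene Zfp207 (4.31%). Abundant endothelial genes with small spread included Epas1, Thbd, Cav1 and Clec1a. At the other end, Ext2, a heparan sulfate enzyme, was at 33.5, 16.8, 645, 23.7 and 60.8 FPKM, and Tmem184b, a membrane protein gene, at 68.1, 73.5, 73.9, 37.6 and 958. Each rests on 1 library. Scgb1a1, Cd74, F5 and Cldn5 were also among the 10 most variable genes, as was Thbs1, an adhesive protein stored in platelets, at 51.9, 80.5, 4.40, 8.97 and 5.16 FPKM, high in libraries 1 and 2.

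**Figure D5:**
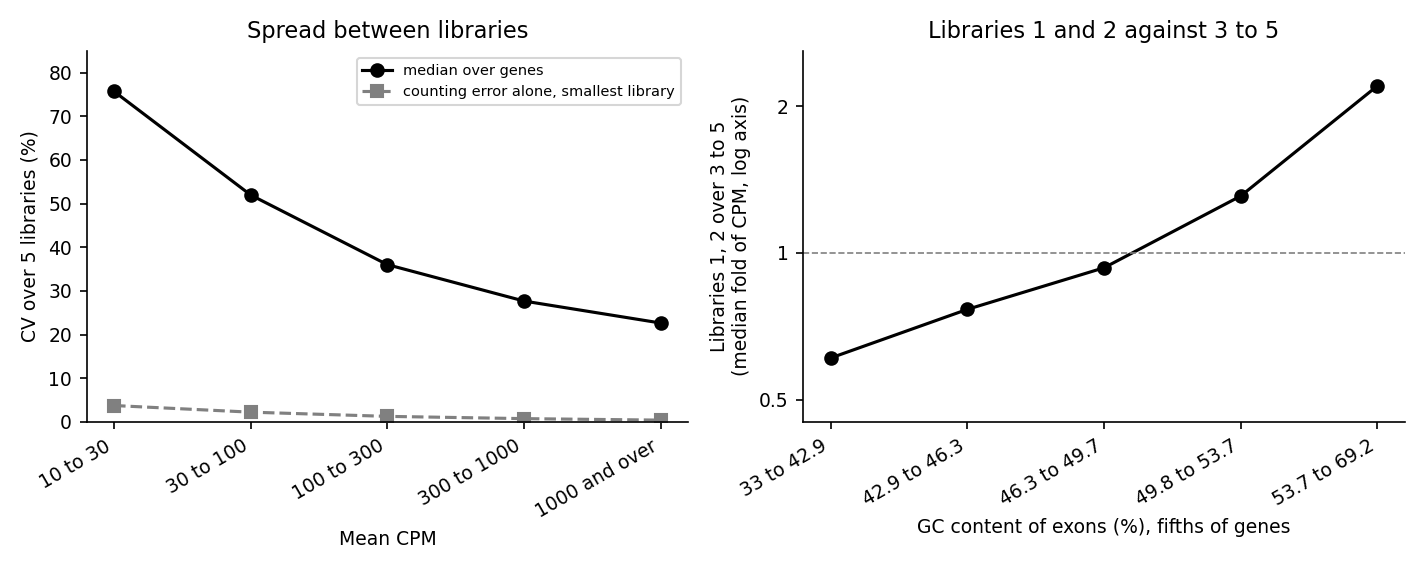
Left, the median coefficient of variation over the 5 normal lung libraries against mean CPM, with counting error alone as a dashed line; right, the median ratio of libraries 1 and 2 to libraries 3 to 5 (log axis) in 5 equal sets of genes by the GC content of their exons. Spread falls from 75.7 to 22.6% as abundance rises, and the ratio climbs from 0.608 to 2.2 with GC content.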

How the data were processed

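Raw fragment counts per gene for 24538 genes and a table of FPKM for 24460 genes were used as deposited by the authors. Per the submitters' processing notes the builds are mm10 and GRCm38, and the tools include HTSeq 0.6.1 and Cufflinks 2.2.1 beside TopHat2 2.0.13 and DESeq2 1.6.3. Which annotation was used, and whether strand was used, is not given in the sources used here. Overlapping genes are therefore uncertain. The deposited counts hold 5 HTSeq summary rows per library, which were left out. Fragments in no feature were 55.4 to 64.7% of all, not unique 9.37 to 11.1% and ambiguous 0.223 to 0.345%. The rows sum to 167 to 258 M per library, above the 60 to 80 M reads that the labels state.

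Libraries were taken from their titles. The members, the 30 gene lists and the class patterns were chosen with earlier results of these data known. Levels are the deposited FPKM. Ranks use genes with at least 10 counts in every library, detection a minimum of 1 FPKM, and a short RNA gene is one named as such or with at most 200 bases of exon. Coefficients of variation use TMM-scaled CPM (edgeR 4.0.16, R 4.3.3), and the common one uses estimateDisp with an intercept only, tested on simulated data. An SD given with FPKM is on the FPKM scale. GENCODE M21 (GRCm38) gave exon lengths, GC content and positions for 97.9% of the 11786 genes with a mean of at least 1 CPM. GC content is that of the longest transcript of a gene. Upstream sequences are from RefSeq (GRCm38.p6). Figures were drawn with matplotlib 3.10.9. No test between groups was made. Counting limits cover counting error only.

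Named genes follow 1 rule: the sort genes and markers, the 25 highest by FPKM and 10 highest by CPM, the 20 highest of each class and 2 highest of each family, the 4 highest of each endothelial or pathway list and 2 of each other list, list members at 0 counts, and the 10 highest and 10 lowest coefficients of variation at 100 CPM or more. Other genes named, such as Fendrr and low members of the lists, were chosen after their values were seen. The effect of DESeq2 1.42.0 size factors, other scales, other minimums and leaving out each library is given at the end.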

Additional observations from a re-analysis of the deposited data

Results flagged for a closer look

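In a group of 5 libraries, 1 library far from the other 4 was looked for by Dixon's criterion in 178 genes and 30 list medians. The search was made on the FPKM scale. It was found for 28 genes and 6 lists. The criterion is set so that chance alone sets apart about 1 in 20 groups of normally distributed values. FPKM was used without a log transform, and some calls were on very low levels, such as Nppa (0.163 FPKM) and the neutrophil median (0.0744 FPKM). The rate therefore cannot tell how many of these genes and lists chance would set apart. It also does not hold for genes named because of a high coefficient of variation or a mean raised by 1 library, such as Ext2, Tmem184b, Cd74, F5, Mir6385, Mir1931 and Snora33.

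Library 1 was far above the others for Cdh5 (2645 FPKM), Pecam1 (1206), Emp2 (825), Ehd2 (317) and the pan-endothelial median (258), and for Ccl21a (7.73), Mir1931 (11465) and Snora33 (6918), which have near-identical copies or a very short length. Library 2 was far above the others for Ppbp (783 FPKM), the platelet median (32.3), Cd74 (1204), F5 (42.1), the arterial median (32.1), Hbb-bs (15.9) and Nppa (0.163). It was far below them for Podxl (430.1), S1pr1 (398) and Tjp1 (351). By CPM some of these genes stood out less. Podxl in library 2 was at 1913 CPM against 2038 to 2667 in the others. Cdh5 was at 8103 CPM in library 1 and 5665 in library 2, against 3631 to 4007 in libraries 3 to 5. Library 3 was high for Ext2 (645 FPKM) and the glucocorticoid receptor gene Nr3c1 (39.4), and listed at 0 for Calcrl and Mir703. Library 4 was high for the matrix gene Sparc (242 FPKM), Col1a1 (6.04), the smooth muscle gene Myh11 (8.58), Top2a (9.07), Csf3r (0.482), Mir6385 (37873) and the medians of the lymphocyte (0.903) and neutrophil (0.0744) lists. Library 5 was high for Tmem184b (958 FPKM), Chil3 (135), the mesothelial gene Krt19 (0.967) and the airway median (14.8).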

How the results depend on the processing

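Of 137 recomputed values, 105 stayed within 1.5 times (counts) or 1 SD (levels) and 32 moved. No paired analysis was possible because replicate numbers are shared with the metastasis libraries only, and no groups were compared. A minimum of 5 FPKM left 4001 genes and 74 secreted symbols detected in all libraries. The 100 leading genes took 36.8% of the FPKM sum. Of the leading 25 genes with short RNA genes counted, 14 were kept by CPM and 14 by counts per kilobase of exon; with short RNA genes left out, 14 and 16. As a percentage of the pan-endothelial median, members with at least 10 counts gave 95.4 for aerocyte, 15.1 arterial, 2.22 venous and 29.8 lymphatic. The highest other cell list was then airway at 32.9, over 3 genes, in place of platelet (6.81). CPM gave 72.8 for general capillary, 99.0 aerocyte and 1.47 venous. Counts per kilobase gave 99.0 for aerocyte, 1.18 venous and 0.251 lymphatic. A geometric mean gave 1.89 for venous and 2.14 for lymphatic with a pseudocount of 1, and 22.5 for general capillary and 0.893 for venous with 0.1. Libraries 1 and 2 alone, chosen after seeing the data, gave 0.838 for venous. The median coefficient of variation was 61.3% without the CPM minimum, 46.6% by FPKM, 41.5% in libraries 3 to 5 and 37.0% in libraries 1 and 2, and ran from 49.6 to 53.3% when 1 library was left out, lowest without library 1. At equal spread this median is lower over fewer libraries, so these values cannot be set directly against the 53.9% over all 5. How much of the difference comes from the number of libraries was not tested. The common biological coefficient of variation was 1.18 without a filter, 0.718 in libraries 3 to 5, 0.789 in libraries 1 and 2 and 0.765 to 0.817 when 1 library was left out. These fits kept different numbers of genes, from 9653 in the main fit to 16021 without a filter, so they are not directly comparable. Amplified fragments are not independent molecules, so counting error understates what depth limits.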
